A study of Mus musculus with 32 samples.

Results

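Open chromatin of patrolling monocytes (pMo) from the lungs of untreated DBA2J mice was set against that of untreated C57BL6J mice. The members are the ATAC-seq peaks of the 2 pMo lists, 26592 in DBA2J and 45534 in C57BL6J, which make 72126 of the 311509 peaks in the 8 lists of the series. A peak was called shared where at least 1 bp of it overlapped a peak of the other strain, and strain-only where none did. This was done with all peaks, and with equal numbers, taking all 26592 peaks of DBA2J and the 26592 best-scored peaks of C57BL6J. The titles name the cells only as pMo, which the series' design text spells out as patrolling monocytes and the source field as macrophages. They were sorted from digested lung with antibodies to the leukocyte marker CD45, the myeloid markers CD11b, CD11c, F4/80, CD64 and SiglecF, and Ly6c and Ly6g, and both strains are inbred laboratory mice; neither age nor sex is given. Each strain had 2 ATAC-seq libraries, from which the authors made 1 peak list, and 2 RNA-seq libraries. The same was measured in alveolar macrophages (AM), interstitial macrophages (IM) and inflammatory monocytes (iMo) of both strains, which serve here to show where else a pMo peak was found. With 1 peak list per strain, no peak comparison has a replicate, and none was tested.

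Patrolling monocytes are the non-classical monocytes that crawl along the inner wall of small vessels, with lung capillaries as a main site. They depend on the nuclear receptor Nr4a1, and carry the fractalkine receptor Cx3cr1 and the sialophorin Spn (CD43) but little Ly6c. ATAC-seq marks DNA that is not wrapped in nucleosomes by letting a transposase cut into it. Peaks at transcription starts mark promoters, which are open in many cell types, while peaks far from starts mark enhancers and insulators, which are more often open in 1 cell type. DBA/2 and C57BL/6 are old inbred strains with many differences in sequence.

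Promoters with a peak in 1 strain are shown first, because the strain-only peaks of DBA2J and those of C57BL6J lay at starts of different base composition. Sequences are the 250 bases before the annotated start, 5′ to 3′ on the gene's strand, from RefSeq on GRCm38.p6, the assembly that mm10 names and that was made from C57BL/6J. They are reference letters and not those of DBA2J. Capitals mark a motif match on either strand. P2ry2 (chr7:101011999-101012248, minus strand), Kcne3 (chr7:100178433-100178682, plus strand) and P2rx1 (chr11:72998895-72999144, plus strand) had a peak in DBA2J only. Capitals in P2ry2 and Kcne3 are KLF/SP letters.
P2ry2: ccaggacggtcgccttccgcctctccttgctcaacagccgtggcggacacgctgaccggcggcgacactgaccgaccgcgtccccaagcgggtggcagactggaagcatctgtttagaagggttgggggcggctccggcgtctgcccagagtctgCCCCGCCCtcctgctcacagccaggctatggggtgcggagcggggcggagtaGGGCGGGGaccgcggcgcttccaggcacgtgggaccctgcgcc
Kcne3: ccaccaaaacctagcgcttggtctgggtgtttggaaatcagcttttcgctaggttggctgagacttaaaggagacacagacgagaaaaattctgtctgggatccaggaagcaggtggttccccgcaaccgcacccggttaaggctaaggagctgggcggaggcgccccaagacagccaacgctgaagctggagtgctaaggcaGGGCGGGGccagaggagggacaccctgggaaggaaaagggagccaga
P2rx1: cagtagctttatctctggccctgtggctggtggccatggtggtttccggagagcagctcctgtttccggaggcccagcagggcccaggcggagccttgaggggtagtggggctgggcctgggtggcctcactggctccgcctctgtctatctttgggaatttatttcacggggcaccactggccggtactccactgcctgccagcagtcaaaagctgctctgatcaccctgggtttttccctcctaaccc
Ccl3 (chr11:83649379-83649628, minus strand), Trim30d (chr7:104507850-104508099, minus strand) and Nlrp1b (chr11:71230734-71230983, minus strand) had a peak there in C57BL6J only. Capitals in Ccl3 and Trim30d are IRF letters, and those in Nlrp1b are PU.1 letters.
Ccl3: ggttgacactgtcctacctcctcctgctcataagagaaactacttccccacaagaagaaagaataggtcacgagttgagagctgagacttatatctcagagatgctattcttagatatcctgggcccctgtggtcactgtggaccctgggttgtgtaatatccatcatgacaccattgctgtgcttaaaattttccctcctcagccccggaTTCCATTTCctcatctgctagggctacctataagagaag
Trim30d: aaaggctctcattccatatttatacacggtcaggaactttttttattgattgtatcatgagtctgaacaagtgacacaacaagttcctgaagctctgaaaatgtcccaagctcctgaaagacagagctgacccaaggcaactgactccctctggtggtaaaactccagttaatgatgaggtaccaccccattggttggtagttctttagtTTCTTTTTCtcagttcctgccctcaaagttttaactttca
Nlrp1b: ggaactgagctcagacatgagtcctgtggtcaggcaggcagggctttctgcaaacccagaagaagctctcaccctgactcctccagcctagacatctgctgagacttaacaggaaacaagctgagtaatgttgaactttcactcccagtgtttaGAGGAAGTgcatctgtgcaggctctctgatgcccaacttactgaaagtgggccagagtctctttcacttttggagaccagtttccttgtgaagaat
Zbtb5 (chr4:45012413-45012662, minus strand) had a peak in both strains whose borders did not overlap. Its capitals are KLF/SP letters.
Zbtb5: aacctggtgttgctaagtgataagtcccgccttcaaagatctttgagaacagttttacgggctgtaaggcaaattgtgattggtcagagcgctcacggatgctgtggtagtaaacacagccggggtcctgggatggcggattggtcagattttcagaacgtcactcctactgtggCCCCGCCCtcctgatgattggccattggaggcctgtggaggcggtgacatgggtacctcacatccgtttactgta

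Over 18096 promoters that matched a gene of the table by symbol (of 24940 genes, 16381 with the same start base), 296 had a DBA2J-only peak within 1 kb of the start and no C57BL6J peak within 500 bp, 136 had a C57BL6J-only peak on the same terms, and 6961 had a shared peak. In the window of 250 bases before to 50 after the start, the median GC content was 67.5% at DBA2J-only starts, 50.2% at C57BL6J-only starts, 62.3% at shared starts and 56% over all promoters. CpG pairs per 100 bases had medians of 9.17 at DBA2J-only starts, 2.33 at C57BL6J-only starts, 7.67 at shared starts and 4 over all promoters. DBA2J-only starts were thus richer in CpG than shared starts, and C57BL6J-only starts poorer than the average promoter. The KLF/SP letters GGGCGTGG or GGGCGGGG were found in 54.7% of DBA2J-only starts, 10.3% of C57BL6J-only starts, 44.9% of shared starts and 27.1% of all. CTCF letters, AGGTGGCAG or AGGGGGCGC, were found in 7.43% of DBA2J-only starts, 0% of C57BL6J-only starts, 3.03% of shared starts and 2.27% of all. The IRF letters GAAANNGAA were found in 2.7% of DBA2J-only starts, 16.2% of C57BL6J-only starts, 6.64% of shared starts and 8.04% of all. RUNX letters, TGTGGTT, stood in 3.04% of DBA2J-only starts, 8.82% of C57BL6J-only starts, 3.23% of shared starts and 4.69% of all. AP-1 letters, TGACTCA or TGAGTCA, stood in 1.69% of DBA2J-only starts, 8.09% of C57BL6J-only starts, 2.86% of shared starts and 4.77% of all. PU.1 letters, GAGGAAGT, stood in 2.36% of DBA2J-only starts, 5.15% of C57BL6J-only starts, 3.53% of shared starts and 3.24% of all. ETS letters, CCGGAAGT, did not go with GC content in this way, at 5.07% of DBA2J-only starts, 7.35% of C57BL6J-only starts, 11% of shared starts and 5.29% of all. C/EBP letters (TTGCGCAA or TTGCACAA), NR4A letters (AAAGGTCA) and NF-kB letters (GGGANTTTC) stood in under 4% of each set, with 0.676%, 0% and 0.676% of DBA2J-only starts and 2.94%, 3.68% and 1.47% of C57BL6J-only starts. Both strands were searched for all 10 motifs, none of which holds another, though those of PU.1 and ETS end in the same letters, and a match describes letters in the reference and not a bound site.

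With all peaks, 24524 DBA2J peaks (92.2%) were shared and 2068 (7.78%) were DBA2J-only, against 24535 C57BL6J peaks (53.9%) that were shared and 20999 (46.1%) that were C57BL6J-only. The C57BL6J list was the longer one, and its lowest score of 20.5 lay under the lowest score of 31.2 in DBA2J. With equal numbers, 6057 DBA2J peaks (22.8%) and 6054 C57BL6J peaks (22.8%) had no partner among the 26592 of the other strain. Sets of equal size that pair almost peak by peak must give nearly equal shares, so this value shows how much the sets differ and cannot show which strain has more open sites. Of those 6057 DBA2J peaks, 3989 overlapped a C57BL6J peak that was scored below the limit. At that limit the last C57BL6J peak inside and the next one outside both had a score of 38.8. The equal-number share in pMo was near that of the other cell types compared in the same way, with 21% of DBA2J and 21% of C57BL6J peaks in AM, 24.7% of DBA2J and 24.8% of C57BL6J peaks in IM, and 20.9% of DBA2J and 20.9% of C57BL6J peaks in iMo.

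In what follows, DBA2J-only stands for the 2068 DBA2J peaks with no overlap in the full C57BL6J list, and C57BL6J-only for the 6054 peaks among the 26592 best-scored of C57BL6J with no overlap in the full DBA2J list. Their unequal numbers follow from the unequal lists, since a DBA2J peak can find its partner among 45534 peaks and a C57BL6J peak among 26592. Both sets were of low score within their lists: the median was 41.6 for DBA2J-only peaks, and 49 for C57BL6J-only peaks, against 72.9 for shared DBA2J peaks and 73.9 for shared C57BL6J peaks. When each list was cut by score into 10 bins of equal size, in the best-scored bin 1.47% of DBA2J peaks and 1.76% of all C57BL6J peaks were strain-only. In the lowest bin the shares were 19.2% in DBA2J and 88.3% in C57BL6J. How many reads stand behind a score is unknown, so absence from a list does not show that the chromatin was closed.

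**Figure D1:**
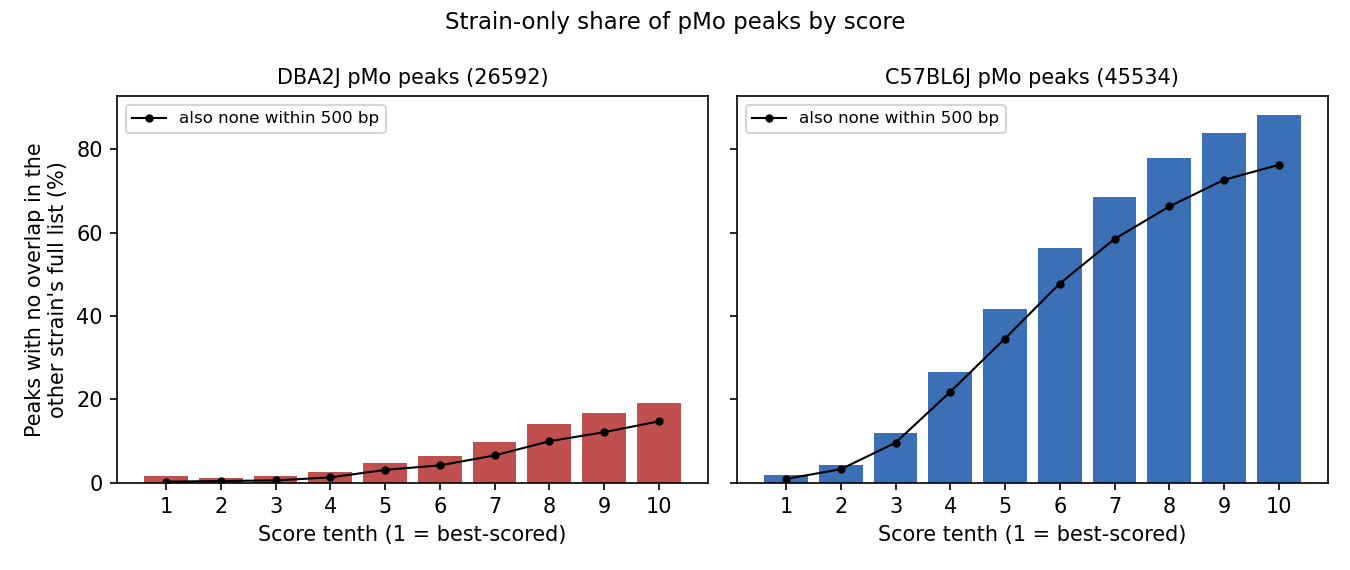
Share of pMo peaks (%) with no overlap in the full list of the other strain, in 10 bins of the score from best to lowest, for DBA2J (left) and C57BL6J (right); the line also asks for no peak of the other strain within 500 bp. The share goes up from 1.47% to 19.2% in DBA2J and from 1.76% to 88.3% in C57BL6J.

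Some strain-only peaks were neighbours of a peak in the other strain. Of the DBA2J-only peaks, 664 (32.1%) had a C57BL6J peak at a gap of at most 500 bp between borders. Of the C57BL6J-only peaks, 1055 (17.4%) had a DBA2J peak at such a gap. Centres lay within 500 bp for 550 DBA2J-only and 759 C57BL6J-only peaks. Of the peaks at such a gap, 67% of those of DBA2J and 41.1% of those of C57BL6J lay within 1 kb of a transcription start. The Zbtb5 promoter, whose gene codes for a zinc finger protein, is one of the best-scored cases. Its DBA2J peak at chr4:45012380-45012580 had a score of 367.8, against 304.3 for the C57BL6J peak at chr4:45012649-45012849, with centres 269 bp apart. RNA of Zbtb5 was 2.62 and 3.74 TPM in DBA2J and 3.03 and 4.04 TPM in C57BL6J, so the libraries of the strains overlapped. Lcorl, a transcription factor gene, had the same pattern, with scores of 647.7 in DBA2J and 493 in C57BL6J and centres 311 bp apart. Since every peak but 1 was 200 bp wide in the deposited lists, 2 peaks whose centres differ by more than that are counted as different. The sets with no peak of the other strain within 500 bp held 1404 DBA2J-only and 4999 C57BL6J-only peaks.

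The 6 best-scored DBA2J-only peaks lay in repeated or copied DNA, and some of the best-scored C57BL6J-only peaks were in no other list. In DBA2J the top pair, chr1:24613017-24613217 with a score of 14994.9 and chr1:24612653-24612853 with a score of 10682.9, lie 25680 and 25316 bp from the start of the collagen gene Col19a1, in a stretch known as a nuclear copy of mitochondrial DNA. Both were also found in AM of both strains, iMo of both strains and IM of DBA2J. The next 4 lay in Rn45s, the ribosomal RNA precursor, with scores from 986.6 to 1324.4, each with a C57BL6J peak centre 258 to 401 bp away. In C57BL6J the peaks near Kdm8 (score 434.5) and Map2k6 (score 446.2) were in no other list. The deposited lists carry another score, with a median of 35 in DBA2J and 42 in C57BL6J, that was low for both of these, at 8 for the one near Kdm8 and 16 for the one near Map2k6. Among the best-scored hundredth of each list, the other score was under the list median for 1 of 9 DBA2J-only peaks and 1 of 256 shared peaks in DBA2J, and for 6 of 14 C57BL6J-only peaks and 1 of 441 shared peaks in C57BL6J. The few strain-only peaks of top score thus stood low by the other score more often than shared peaks in C57BL6J, a count that was not tested. Genes with many strain-only peaks of both kinds were also found: Pisd-ps1, a pseudogene entry, had 7 DBA2J-only, 9 C57BL6J-only and 41 shared peaks, and the chemokine receptor gene Ccr1 had 4 DBA2J-only, 4 C57BL6J-only and 7 shared peaks.

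DBA2J-only peaks lay at promoters as often as shared peaks did, and C57BL6J-only peaks lay mostly away from them. Within 1 kb of a start were 932 DBA2J-only peaks (45.1%), 800 C57BL6J-only peaks (13.2%) and 43.7% of the shared peaks. At 10 to 100 kb from a start were 29.9% of DBA2J-only, 49.2% of C57BL6J-only and 32% of shared peaks. The median distance was 2453 bp for DBA2J-only, 13779 bp for C57BL6J-only and 2842 bp for shared peaks. Without neighbours within 500 bp, the share within 1 kb was 34.7% for DBA2J-only and 7.32% for C57BL6J-only peaks. Genes were then taken whose start had a DBA2J-only peak, no C57BL6J peak within 500 bp of it, and no shared peak within 1 kb. Their RNA was low: over 440 such genes the median level was 0.968 TPM in DBA2J and 0.732 TPM in C57BL6J, and 53% reached 1 TPM in either strain. The 226 genes with a C57BL6J-only start on the same terms had medians of 5.13 TPM in DBA2J and 6.7 TPM in C57BL6J, and 78.8% reached 1 TPM. With a shared peak, 8528 genes had medians of 7.99 TPM in DBA2J and 9.44 TPM in C57BL6J, and 88.8% reached 1 TPM. Over all 24940 genes the medians were 0.409 TPM in DBA2J and 0.44 TPM in C57BL6J, with 47.6% at 1 TPM or more.

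**Figure D2:**
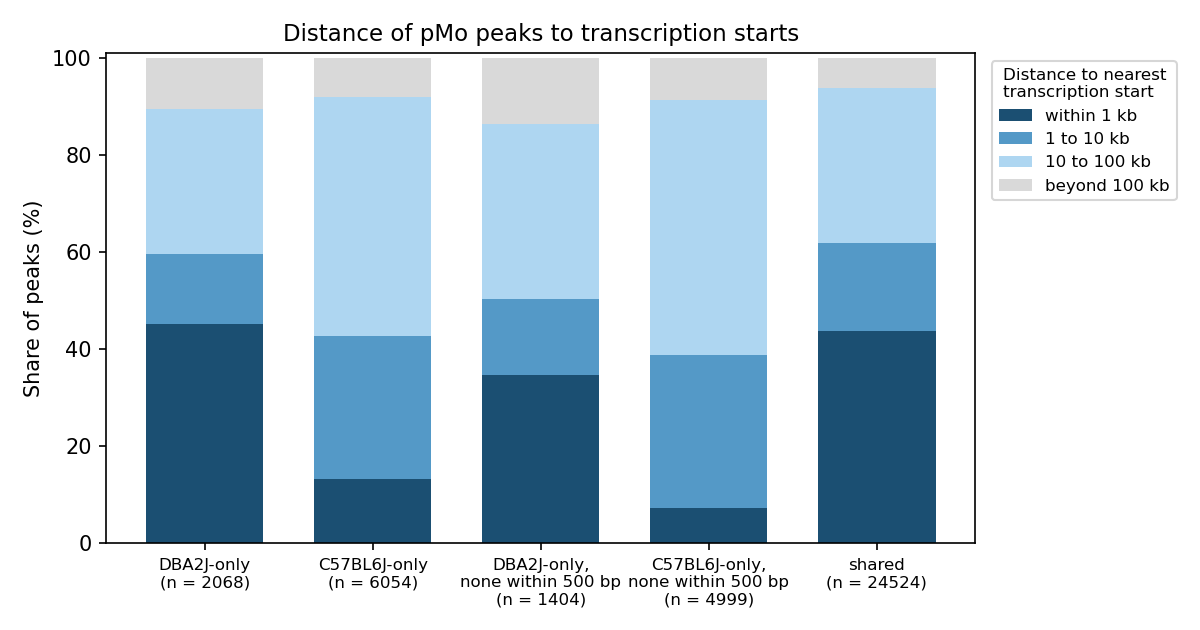
Share of peaks (%) by distance from the peak centre to the nearest transcription start, for DBA2J-only, C57BL6J-only, the same 2 sets with no peak of the other strain within 500 bp, and shared peaks. The part within 1 kb is 45.1% for DBA2J-only, 13.2% for C57BL6J-only and 43.7% for shared peaks.

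Most strain-only pMo peaks were peaks in other lung phagocytes. Of the DBA2J-only peaks, 76.1% were found in iMo of DBA2J, 48.5% in iMo of C57BL6J, 47.6% in IM of DBA2J, 69.1% in IM of C57BL6J, 32% in AM of DBA2J and 16.3% in AM of C57BL6J. Of the C57BL6J-only peaks, 32.8% were found in iMo of DBA2J, 54.8% in iMo of C57BL6J, 20.4% in IM of DBA2J, 83.9% in IM of C57BL6J, 57.3% in AM of DBA2J and 50.3% in AM of C57BL6J. DBA2J-only pMo peaks were thus shared most with the iMo of their own strain, and C57BL6J-only peaks with the IM of theirs, which is also the longest list. The lists hold 32636 peaks in iMo of DBA2J, 35947 in iMo of C57BL6J, 24429 in IM of DBA2J, 70013 in IM of C57BL6J, 43690 in AM of DBA2J and 32668 in AM of C57BL6J, so that shares in different lists are not on 1 scale. A DBA2J-only pMo peak was found in some other cell type of C57BL6J for 1632 peaks (78.9%), and a C57BL6J-only pMo peak in some other cell type of DBA2J for 4218 (69.7%). Elements open in 1 strain of pMo were therefore mostly called open in the other strain elsewhere. In another cell type of the same strain and in none of the other strain were 280 DBA2J-only peaks (13.5%), 43 of them in all 3 types, and 1404 C57BL6J-only peaks (23.2%), 149 of them in all 3. In no other list were 156 DBA2J-only peaks (7.54%), 432 C57BL6J-only peaks (7.14%) and 0.848% of the shared peaks.

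**Figure D3:**
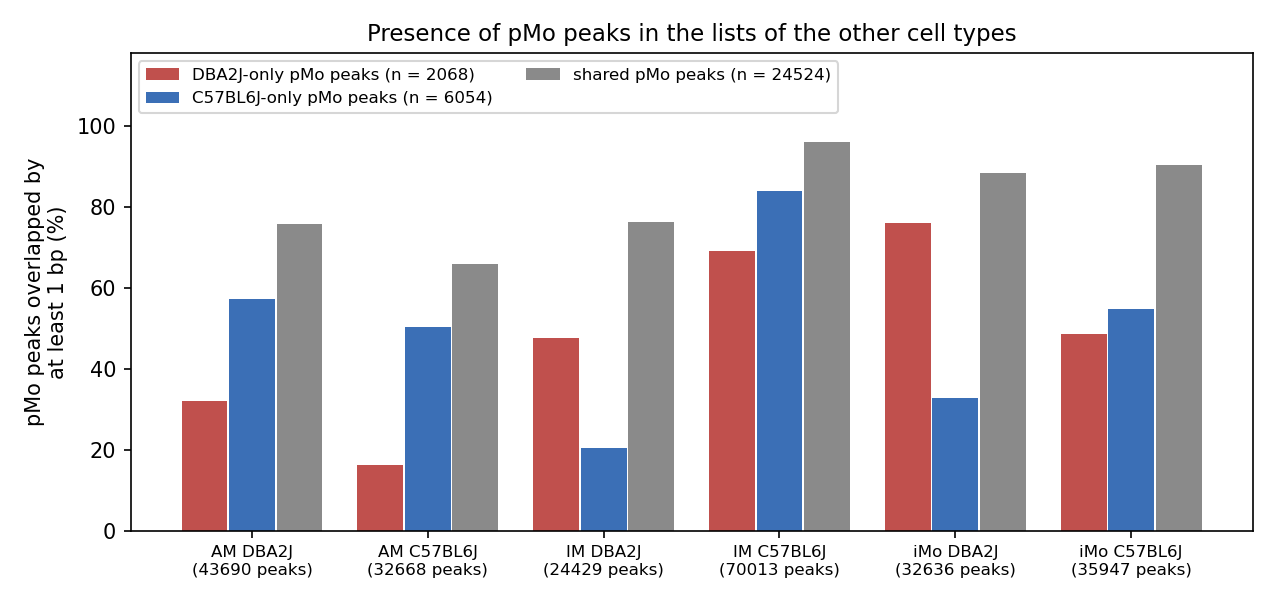
Share of DBA2J-only, C57BL6J-only and shared pMo peaks (%) overlapped by at least 1 bp in each list of AM, IM and iMo, with the length of that list under its name. DBA2J-only peaks are highest in iMo of DBA2J at 76.1%, and C57BL6J-only peaks in IM of C57BL6J at 83.9%.

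Strain-only peaks were in places strung together with no peak of the other strain between them. Stretches of at least 4 such peaks in a row numbered 12 for DBA2J and 72 for C57BL6J, and those described here were picked after their values were seen. The longest for DBA2J lay at chr4:109676744-111687166, which spans 2.01 Mb without a C57BL6J pMo peak and holds 14 DBA2J pMo peaks, scored 33.5 to 155. It takes in Agbl4, a carboxypeptidase of tubulin, Elavl4, a neuronal RNA-binding protein, Bend5 and the transcription factor gene Dmrta2. In the same stretch, iMo had 17 peaks in DBA2J and 2 in C57BL6J, IM 7 in DBA2J and 6 in C57BL6J, and AM 3 in DBA2J and 0 in C57BL6J. Of the 14 pMo peaks, 12 were in no C57BL6J list and 11 in another DBA2J list. All 4 genes were under 1 TPM in every pMo library. On chromosome 1, chr1:24699619-30872146 (6.17 Mb) held 6 DBA2J and 0 C57BL6J pMo peaks around 4931408C20Rik, with 5 in DBA2J and 0 in C57BL6J for iMo. IM had 3 peaks there in DBA2J and 3 in C57BL6J, and AM 1 in DBA2J and 0 in C57BL6J.

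The adjoining stretch chr4:111886909-114652505 (2.77 Mb), with the Skint cluster of immunoglobulin-like genes known for skin T cells, went the other way. It held 0 DBA2J and 9 C57BL6J peaks in pMo, 2 DBA2J and 12 C57BL6J peaks in iMo, 1 DBA2J and 10 C57BL6J peaks in IM, and 1 DBA2J and 1 C57BL6J peak in AM. Of its 13 genes 12 stayed under 1 TPM in every pMo library. The exception was Skint3, with 5 C57BL6J-only peaks, at 0.014 and 0.126 TPM in DBA2J, against 7.97 and 17.8 TPM in C57BL6J (log2 difference -3.61 ± 0.42 SE, limma adjusted p = 6.3e-04). Here the libraries of the strains lie far apart. The C57BL6J stretches also included 8 peaks in a row at Etv6, a transcriptional repressor of the ETS family, 6 across the chemokine genes Ccl9, Ccl6, Ccl3 and Ccl4 (chr11:83578438-83703987), and 5 at the Fc receptor genes Fcgr4 and Fcgr3. The build named in the submitters' processing notes, mm10, is an assembly of C57BL/6J, and whether variants of DBA2J were taken into account in placing reads is not stated in the labels.

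RNA gives a measure that did not enter the choice of peaks. Of the 12277 genes tested, 167 (1.36%) were higher and 282 (2.3%) lower in DBA2J pMo than in C57BL6J pMo at a limma adjusted p under 0.05 (Benjamini-Hochberg), together 449 (3.66%). The median log2 difference of all genes was -0.15, and it was 0.02 after median-of-ratios scaling, which divides each library by its median ratio to the average library. With that scaling 382 of 12211 genes (3.13%) were higher and 317 (2.6%) lower, together 5.72%, so the split between directions depends on the scaling, and list medians are given relative to all genes. Leaving out 1 pMo library at a time gave 96 to 154 genes higher and 99 to 432 lower, the fewest of each without the second C57BL6J library. The labels do not say that the libraries came from separate mice, so p-values cover only the spread between these libraries, which may be technical. Ribosomal entries took 57.4% and 47.2% of the TPM sum in the DBA2J libraries, against 48% and 43% in the C57BL6J libraries. In sorted bulk samples, fewer cells of a type and less RNA per cell cannot be told apart.

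Among the genes near strain-only peaks that passed the RNA test, more went in the direction of their peaks than against it, but the counts depend on single libraries. Each peak was given to the nearest start within 100 kb. Among 765 tested genes with DBA2J-only but no C57BL6J-only peaks, 27 (3.53%) were higher and 12 (1.57%) lower in DBA2J. Among 2530 with C57BL6J-only but no DBA2J-only peaks, 27 (1.07%) were higher and 107 (4.23%) lower. Without the second DBA2J library, 15 DBA2J-only genes were higher and 10 lower, and 15 C57BL6J-only genes were higher and 113 lower. Without the first DBA2J library, 22 DBA2J-only genes were higher and 4 lower, and 21 C57BL6J-only genes higher and 55 lower. Without the first C57BL6J library, 21 DBA2J-only genes were higher and 19 lower, and 16 C57BL6J-only genes higher and 138 lower. Without the second C57BL6J library, 19 DBA2J-only genes were higher and 2 lower, and 15 C57BL6J-only genes higher and 47 lower. Genes with shared peaks alone numbered 6277, of which 53 (0.844%) were higher and 96 (1.53%) lower. Most genes near a strain-only peak thus passed the test in neither direction, and the medians were close to that of all genes, at 0.08 above it for DBA2J-only and 0.03 below it (-0.03) for C57BL6J-only genes. With median-of-ratios scaling, the DBA2J-only genes split into 49 higher (6.46%) and 16 lower (2.11%), and the C57BL6J-only genes into 75 higher (2.98%) and 119 lower (4.72%), against 3.13% and 2.6% of all genes. For peaks within 1 kb of the start and none of the other strain within 500 bp, 18 of 294 genes with DBA2J-only peaks (6.12%) were higher and 4 (1.36%) lower. Genes that also had a shared peak at the start were kept here. On the same terms, 4 of 312 genes with C57BL6J-only peaks (1.28%) were higher and 18 (5.77%) lower, and of 7796 genes with shared peaks 57 (0.731%) were higher and 165 (2.12%) lower. After median-of-ratios scaling these became 29 higher (10%) and 5 lower (1.73%) of 289 DBA2J-only genes, and 10 higher (3.22%) and 19 lower (6.11%) of 311 C57BL6J-only genes.

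**Figure D4:**
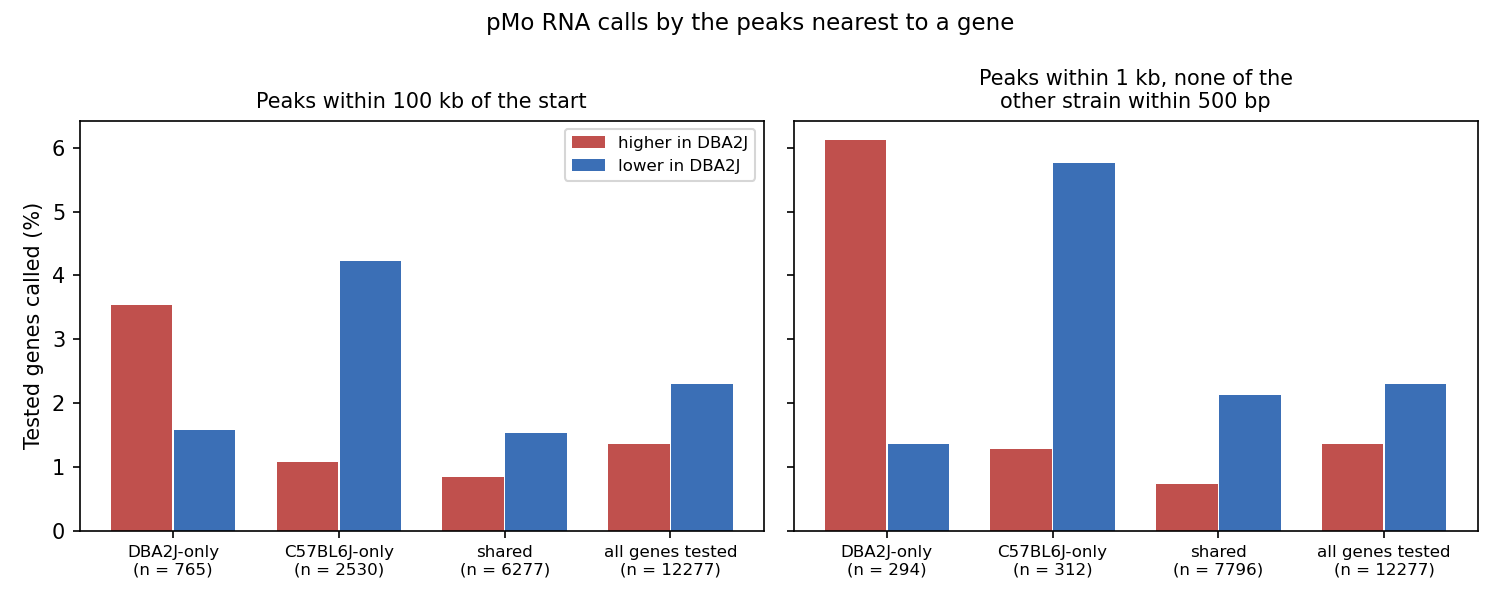
Share of tested genes (%) called higher or lower in DBA2J pMo (limma adjusted p under 0.05), for genes with DBA2J-only, C57BL6J-only or shared peaks and for all genes; left, peaks within 100 kb of the start; right, peaks within 1 kb with none of the other strain within 500 bp. At starts, 6.12% of DBA2J-only genes are higher and 5.77% of C57BL6J-only genes are lower.

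Of the 18 genes with a DBA2J-only start and more RNA in DBA2J, 4931408C20Rik differed most (its values follow those of Cd22), and then P2rx1, Cd22, Kcne3 and P2ry2. P2rx1, an ion channel opened by ATP, had 63.7 and 61.6 TPM in DBA2J, against 1.5 and 2.24 TPM in C57BL6J (log2 difference 4.48 ± 0.27 SE, limma adjusted p = 3.6e-06). Its start peak at chr11:72998906-72999106 had a score of 32.4, near the lowest of the list, and was also found in iMo of DBA2J and IM of C57BL6J. P2ry2, a G protein-coupled receptor for ATP and UTP, had 11.4 and 11 TPM in DBA2J, against 0.148 and 0.055 TPM in C57BL6J (3.47 ± 0.22, adjusted p = 5.0e-06). Both nucleotide receptors were thus higher in DBA2J, and the rule that named them asked for no overlap between libraries. Both also had C57BL6J-only peaks over 10 kb from the start, 1 for P2rx1 and 2 for P2ry2. The P2ry2 start peak, chr7:101011944-101012144 with a score of 57.8, was found in AM, IM and iMo of both strains, so that of all 8 lists only pMo of C57BL6J lacked it. Kcne3, an accessory subunit of potassium channels, had 81.5 and 74.3 TPM in DBA2J, against 2.96 and 3.46 TPM in C57BL6J (4.23 ± 0.18, adjusted p = 1.5e-07), and its start peak was missing only in pMo of C57BL6J and IM of DBA2J. Adgrg5, an adhesion G protein-coupled receptor, had 20.4 and 21.7 TPM in DBA2J, against 3.39 and 2.79 TPM in C57BL6J (2.44 ± 0.22, adjusted p = 1.0e-04). Itgb3, an integrin chain of the vitronectin receptor, had 25.3 and 33.6 TPM in DBA2J, against 6.07 and 5.3 TPM in C57BL6J (2.18 ± 0.38, adjusted p = 0.00847). That call was lost without the second DBA2J library (0.0632), without the second C57BL6J library (0.08) and with a pseudocount of 0.1 (0.0806). F5, coagulation factor V, had 10 and 15.8 TPM in DBA2J, against 1.41 and 1.47 TPM in C57BL6J (2.48 ± 0.28, adjusted p = 4.7e-04).

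Cd22, a sialic acid-binding inhibitory receptor best known from B cells, had 789 and 1033 TPM in DBA2J, against 42.4 and 51.4 TPM in C57BL6J (log2 difference 4.24 ± 0.32 SE, limma adjusted p = 2.1e-05). Its only peak, at the start (chr7:30880238-30880438, score 42.8), was in no other list. The 5 other B cell markers measured summed to 302 and 164 TPM in DBA2J and 58 and 104 TPM in C57BL6J, with all 5 differences positive and 0 called, and their part in the Cd22 difference was not tested. 4931408C20Rik, a gene with no role named here, had 215 and 294 TPM in DBA2J and was listed at 0 in both C57BL6J libraries (adjusted p = 1.4e-07). All 5 of its pMo peaks were DBA2J-only, with a score of 372.4 at the start. In the other cell types it averaged 0.488 TPM in DBA2J and 0 in C57BL6J for AM, 97.6 TPM in DBA2J and 0 in C57BL6J for IM, and 108 TPM in DBA2J and 0.467 TPM in C57BL6J for iMo. Cebpe, a C/EBP transcription factor of granulocyte development, had 9.28 and 7.8 TPM in DBA2J, against 0.632 and 0 TPM in C57BL6J (2.90 ± 0.64, adjusted p = 0.0295), but the call was lost when any 1 pMo library was left out (0.0501 to 0.244) and with no filter on low values (0.0681). Against the direction of their DBA2J-only start, 4 genes were lower in DBA2J, among them Vipr2, Mtfmt and Gm26839. Vipr2 was not called without the second C57BL6J library (0.0581), nor were Mtfmt (0.0579 to 0.204) and Gm26839 (0.0649 to 0.216) without 3 of the 4 pMo libraries in turn.

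Of the 18 genes with a C57BL6J-only start and less RNA in DBA2J, Gm1966, a predicted gene, differed most, with 1.45 and 3.67 TPM in DBA2J, against 49.6 and 108 TPM in C57BL6J (log2 difference -4.45 ± 0.43 SE, limma adjusted p = 1.6e-04). Ccl3, a chemokine that draws monocytes, had 9.66 and 29.2 TPM in DBA2J, against 63.4 and 121 TPM in C57BL6J (log2 difference -2.31 ± 0.47 SE, limma adjusted p = 0.0186). Ccl4, its neighbour and a related chemokine, had 1.41 and 7.61 TPM in DBA2J, against 32.7 and 47.7 TPM in C57BL6J (-3.15 ± 0.57, adjusted p = 0.00929). Libraries of the strains did not overlap, but neither call held without the first DBA2J library (Ccl3 0.141, Ccl4 0.0752) or without the second C57BL6J library (Ccl3 0.202, Ccl4 0.104). Markers of T and NK cells, which are known to make these chemokines too, summed to 13.6 and 51.3 TPM in DBA2J and 116 and 159 TPM in C57BL6J over 10 genes. Of the 9 tested, 7 differences were negative and 2 positive, and 3 genes were called lower, the killer cell genes Klrb1c, Gzma and Gzmb. The call of Klrb1c was lost with a pseudocount of 0.1 (limma adjusted p = 0.0552) and with no filter on low values (0.0777). Cd4 was under 1 TPM in every pMo library, and the part of these markers in the chemokine difference was not tested. All start peaks of Ccl3 and Ccl4 were found in AM of DBA2J as well, and the one of Ccl3 in iMo of DBA2J.

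Trim30d, of a family of interferon-inducible TRIM proteins, had 0.235 and 0.227 TPM in DBA2J, against 8.38 and 17.1 TPM in C57BL6J (log2 difference -3.40 ± 0.32 SE, limma adjusted p = 1.4e-04). Its start peak, chr7:104507868-104508068, was present in all 4 C57BL6J cell types and in none of DBA2J, and a DBA2J-only peak lay 1979 bp from the start. Nlrp1b, an inflammasome sensor whose alleles differ between mouse strains, had 4.02 and 4.31 TPM in DBA2J, against 14.8 and 24 TPM in C57BL6J (-1.94 ± 0.26, adjusted p = 0.00162). Its start peak and a peak 20835 bp away, scored 166.8, had the same pattern over the lists. At both genes the strain-only peak thus went with the strain in all cell types. Gbp9, a guanylate-binding protein, had 4.54 and 5.5 TPM in DBA2J, against 21.5 and 37.1 TPM in C57BL6J (-2.29 ± 0.37, adjusted p = 0.005), not called without the first DBA2J library (0.0505) or the second C57BL6J library (0.0627). Cyp4f18, which inactivates leukotriene B4, had 51.7 and 57.6 TPM in DBA2J, against 153 and 145 TPM in C57BL6J (-1.43 ± 0.17, adjusted p = 6.5e-04). Cd52, a small glycoprotein of the leukocyte surface, had 299 and 319 TPM in DBA2J, against 664 and 664 TPM in C57BL6J (-1.10 ± 0.19, adjusted p = 0.00653), not called without the first DBA2J library (0.0586) or the second C57BL6J library (0.0528). Prdx2, a peroxiredoxin, had 8.14 and 11 TPM in DBA2J, against 32.1 and 31.6 TPM in C57BL6J (-1.65 ± 0.17, adjusted p = 2.9e-04). These 6 genes were taken from those called lower in DBA2J, so the lack of overlap between their libraries adds no support.

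**Figure D5:**
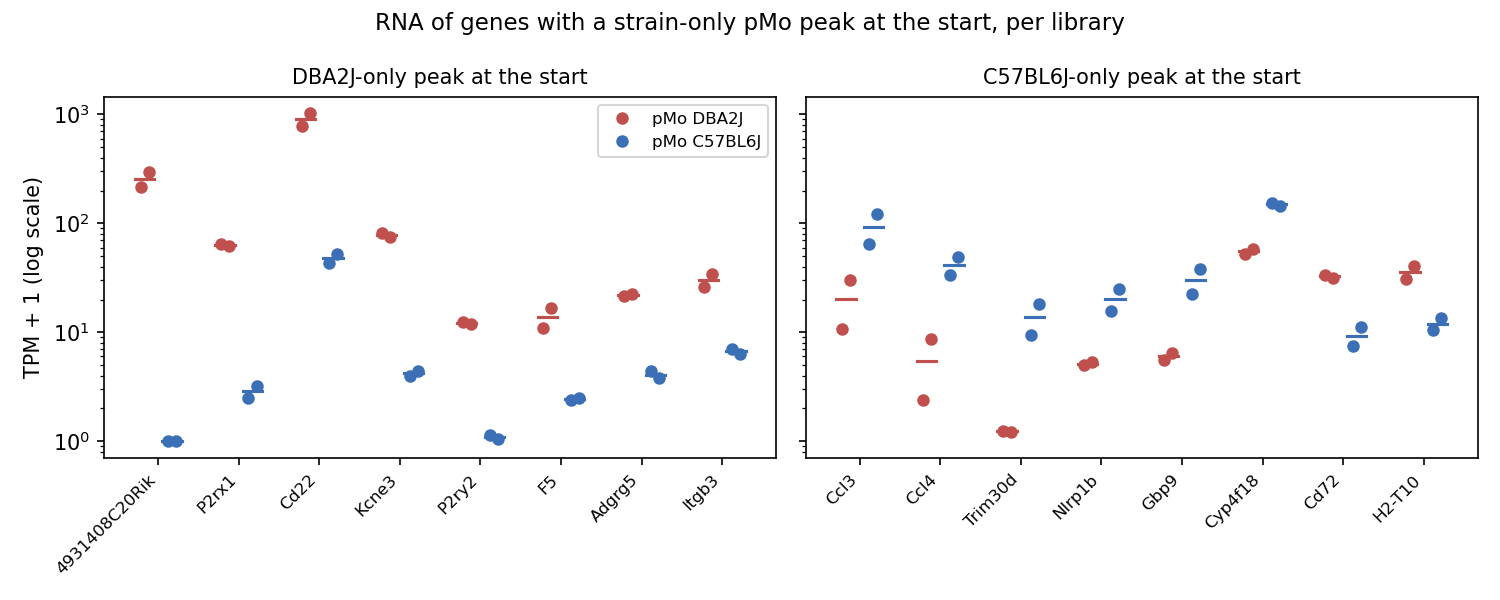
RNA in each pMo library (TPM + 1, log axis; short lines are means of 2 libraries) of genes with a DBA2J-only peak (left) or a C57BL6J-only peak (right) at the start. The 8 genes on the left are higher in DBA2J, such as P2rx1 at 63.7 and 61.6 TPM against 1.5 and 2.24 TPM in C57BL6J; on the right, Cd72 and H2-T10 are higher in DBA2J and the other genes lower.

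Other genes near C57BL6J-only peaks had those peaks away from the start. Gsr, glutathione reductase, had 8.38 and 13.4 TPM in DBA2J, against 91.6 and 107 TPM in C57BL6J (log2 difference -3.10 ± 0.23 SE, limma adjusted p = 2.0e-05), with 2 C57BL6J-only peaks 13167 and 20636 bp from the start. Hpgd, which degrades prostaglandins, had 4.31 and 10.1 TPM in DBA2J, against 73.8 and 91 TPM in C57BL6J (-3.43 ± 0.43, adjusted p = 0.00103). Gcnt1, a glycosyltransferase that builds selectin ligands, had 3 and 3.63 TPM in DBA2J, against 22.7 and 30.1 TPM in C57BL6J (-2.66 ± 0.29, adjusted p = 3.4e-04), with 4 C57BL6J-only and 7 shared peaks. None of these 3 overlapped between strains, which the rule that named them required. Hspa8, the constitutive heat shock chaperone, had 20.1 and 30.7 TPM in DBA2J, against 190 and 143 TPM in C57BL6J (-2.68 ± 0.38, adjusted p = 0.00254), with 2 C57BL6J-only peaks and 1 DBA2J-only peak beside a C57BL6J peak 299 bp away. Cd93, a glycoprotein of myeloid and endothelial cells, had peaks of all classes (2 DBA2J-only, 1 C57BL6J-only, 6 shared) and more RNA in DBA2J, at 287 and 358 TPM against 32.4 and 31.3 TPM in C57BL6J (3.29 ± 0.18, adjusted p = 1.6e-06). The genes with the most C57BL6J-only peaks did not pass the test: Lrrc8d, a subunit of volume-regulated anion channels, with 12 peaks (-0.23), Etv6 with 10 (-0.22), the sphingomyelin synthase gene Sgms1 with 9 (-0.53) and the actin regulator gene Wipf1 with 9 (-0.18).

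Some genes had more RNA in DBA2J in spite of a C57BL6J-only start. Cd72, an inhibitory receptor with strain-specific alleles, had 32.7 and 30.8 TPM in DBA2J, against 6.47 and 10.2 TPM in C57BL6J (log2 difference 1.84 ± 0.25 SE, limma adjusted p = 0.00177). H2-T10, a non-classical MHC class I gene, had 30.2 and 39.9 TPM in DBA2J, against 9.57 and 12.5 TPM in C57BL6J (1.58 ± 0.26, adjusted p = 0.00533). Hcar2, the niacin receptor, had 7.62 and 6 TPM in DBA2J, against 2.06 and 1.32 TPM in C57BL6J, and the zinc finger gene Zfp951 had 19.9 and 40.4 TPM in DBA2J, against 2.42 and 4.69 TPM in C57BL6J. These 4 are the genes of that class called higher in DBA2J, so the lack of overlap between their libraries adds no support. H2-Ea-ps, the entry of an MHC class II alpha chain that C57BL/6 mice are known not to express because of a promoter deletion, had 730 and 642 TPM in DBA2J, against 1.65 and 1.05 TPM in C57BL6J (8.20 ± 0.24, adjusted p = 1.5e-08). Near it lay 2 C57BL6J-only peaks, 3483 and 3498 bp from the start, and 1 shared peak. MHC and TRIM genes belong to families of near-identical copies, and how reads were split among copies is not stated in the labels.

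Most markers of patrolling monocytes had a peak shared by both strains. Their 24 genes summed to 8749 and 10515 TPM in DBA2J and 10599 and 10860 TPM in C57BL6J, above the 4468 to 5699 TPM of iMo. Of the 24 genes 21 had a shared peak, 2 a DBA2J-only and 17 a C57BL6J-only peak, with 72 shared, 2 DBA2J-only and 34 C57BL6J-only peaks in all. Of all tested genes 75% had a shared, 9.35% a DBA2J-only and 23.7% a C57BL6J-only peak. By RNA 0 of 24 were called in either direction, as deposited and after median-of-ratios scaling, where 3.66% and 5.72% of all genes were, so that a count of 0 in a list of this length is near the share of all genes. Their median log2 difference was -0.24, against -0.15 for all genes. Nr4a1, the factor these cells need, had 8 shared and 3 C57BL6J-only peaks, and 1086 and 1223 TPM in DBA2J, against 1016 and 881 TPM in C57BL6J. Cx3cr1 had 5 shared and 1 C57BL6J-only peak, and 245 and 238 TPM in DBA2J, against 225 and 287 TPM in C57BL6J. Spn, with 1 shared peak, had 1197 and 1314 TPM in DBA2J and 1790 and 2035 TPM in C57BL6J, and Ace, the angiotensin-converting enzyme, 1211 and 1432 TPM in DBA2J and 1519 and 1286 TPM in C57BL6J. Cd300e, an activating receptor with 2 C57BL6J-only peaks and 0 shared, had 72.1 and 122 TPM in DBA2J, against 287 and 347 TPM in C57BL6J, and just missed the threshold (log2 difference -1.74, limma adjusted p = 0.0522). The tetraspanin gene Cd9 had 5 C57BL6J-only and 4 shared peaks, and 19.5 and 29.5 TPM in DBA2J, against 30.9 and 36.5 TPM in C57BL6J (-0.47, adjusted p = 0.453). By RNA sum, these 24 genes thus went with the label of the cells in both strains. Of 13 inflammatory monocyte markers 1 was called higher in DBA2J pMo and 0 lower, where 1.36% and 2.3% of all genes were. It was Cd177, at 16.4 and 17.9 TPM in DBA2J, against 1.79 and 1.57 TPM in C57BL6J (2.76 ± 0.29 SE, limma adjusted p = 3.2e-04).

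Among myeloid transcription factors, 39 of 59 genes had a C57BL6J-only peak and 8 of 58 tested had less RNA in DBA2J. Of the 59 myeloid factor genes 56 had a shared peak, 8 a DBA2J-only and 39 a C57BL6J-only peak, where 75%, 9.35% and 23.7% of all tested genes had one. These shares count a gene once however many peaks it has. By peaks, the list held 270 shared, 10 DBA2J-only and 76 C57BL6J-only, against 24524, 2068 and 6054 in all. Of the 58 tested, 1 was higher (Cebpe) and 8 lower in DBA2J, against 1.36% and 2.3% of all genes, and after median-of-ratios scaling 1 was higher and 5 lower, against 3.13% and 2.6%. The median log2 difference was -0.16, near the -0.15 of all genes. Fos, a subunit of AP-1, had 6 C57BL6J-only and 9 shared peaks, and 173 and 52.3 TPM in DBA2J, against 391 and 386 TPM in C57BL6J (log2 difference -2.02 ± 0.41 SE, limma adjusted p = 0.0176). It was not called after median-of-ratios scaling (0.0789), nor without the first (0.0586) or the second (0.117) C57BL6J library. Id2, an inhibitor of helix-loop-helix factors, had 1 C57BL6J-only and 3 shared peaks, and 19.4 and 18.5 TPM in DBA2J, against 66.9 and 68.6 TPM in C57BL6J (-1.79 ± 0.17, adjusted p = 1.4e-04). Klf6, a zinc finger factor with 3 C57BL6J-only peaks, had 79.2 and 104 TPM in DBA2J, against 165 and 208 TPM in C57BL6J (-1.02 ± 0.19, adjusted p = 0.00966), not called without the first DBA2J library (0.0978) or the second C57BL6J library (0.106). Nr4a2, of the family of Nr4a1, had 0.949 and 1.57 TPM in DBA2J, against 4.47 and 5.58 TPM in C57BL6J (-1.42 ± 0.25, adjusted p = 0.00847), not called without the same libraries (0.0731 and 0.0904). Nfil3 (-1.45, adjusted p = 0.00501) was lost without the second C57BL6J library (0.0595), and Jun, Fosl2 and Bhlhe40 after median-of-ratios scaling (0.233, 0.263 and 0.0793). Relatives of Fos, Jun and Nr4a2 did not pass the test, with limma adjusted p = 0.0766 for Fosb, 0.198 for Junb, 0.999 for Jund and 0.255 for Nr4a3, nor did Egr3 (0.787). Dusp1, a phosphatase of MAP kinases, had 3 C57BL6J-only peaks and 1 DBA2J-only peak, and 106 and 64.4 TPM in DBA2J, against 380 and 259 TPM in C57BL6J (-1.91 ± 0.31, adjusted p = 0.00533; 0.0526 after median-of-ratios scaling). Cxcr4, the receptor of the homing chemokine Cxcl12, had 4 C57BL6J-only peaks and 1 DBA2J-only peak, and 109 and 117 TPM in DBA2J, against 461 and 338 TPM in C57BL6J (-1.79 ± 0.22, adjusted p = 0.00101).

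The other lists are read against all tested genes, of which 9.35% had a DBA2J-only and 23.7% a C57BL6J-only peak, 1.36% were higher and 2.3% lower in DBA2J, and the median log2 difference was -0.15. Of 27 cytokine and chemokine genes 2 had a DBA2J-only and 13 a C57BL6J-only peak, and of 24 tested 0 were higher and 4 lower in DBA2J (Ccl3, Ccl4, Cxcl2 and Nfkbia; median -0.54), which after median-of-ratios scaling became 0 higher and 3 lower. Of 33 adhesion and trafficking receptors 9 had a DBA2J-only and 20 a C57BL6J-only peak, and of 32 tested 2 were higher and 1 lower (median 0.00). Of 32 Toll-like receptor and nucleic acid sensing genes 2 had a DBA2J-only and 17 a C57BL6J-only peak, and of 32 tested 1 was higher and 3 lower (median -0.18). In these lists genes with a C57BL6J-only peak were thus frequent, while few genes passed the RNA test. By peaks, the cytokine and chemokine list held 24 C57BL6J-only and 63 shared, and the adhesion and trafficking list 47 and 123. The Toll-like receptor and sensing list held 29 and 90, against 6054 C57BL6J-only and 24524 shared peaks in all. Of 38 interferon-stimulated genes 1 had a DBA2J-only and 10 a C57BL6J-only peak, near the share of all genes, and of 37 tested 1 was higher and 4 lower (median -0.49). Of 27 MHC genes 1 had a DBA2J-only and 10 a C57BL6J-only peak, and of 27 tested 4 were higher and 0 lower (median 0.17), or 5 higher and 1 lower after median-of-ratios scaling. Of 21 lipid handling genes 7 had a DBA2J-only and 14 a C57BL6J-only peak, and of 20 tested 1 was higher and 0 lower (median -0.19). Of 47 Fc, Cd300, Trem and C-type lectin receptors 1 had a DBA2J-only and 21 a C57BL6J-only peak, and of 44 tested 3 were higher and 2 lower (median -0.15). Of 36 genes known to differ between these strains or their relatives, 3 had a DBA2J-only and 16 a C57BL6J-only peak, and of 30 tested 5 were higher and 4 lower (median -0.33). The marker lists of other cells are short, and most of their counts cannot be set apart from the shares of all genes. A DBA2J-only peak lay near 1 of 6 B cell, 1 of 10 T and NK cell and 1 of 8 interstitial macrophage markers, and a C57BL6J-only peak near 2 of 13 inflammatory monocyte, 1 of 9 neutrophil, 1 of 10 alveolar macrophage, 2 of 8 interstitial macrophage and 5 of 7 dendritic cell markers. The 8 endothelial and epithelial markers had 0 of either kind.

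A strain difference in pMo can be common to the lung phagocytes or larger in pMo. Tested as the difference in pMo minus its mean in AM, IM and iMo, 53 of 12277 genes (0.432%) were called, 25 (0.204%) with a higher and 28 (0.228%) with a lower value in pMo. With median-of-ratios scaling 110 of 12211 (0.901%) were called, 63 (0.516%) higher and 47 (0.385%) lower. For Kcne3 the test was not passed (log2 difference of differences 0.97, limma adjusted p = 0.0783), nor for Adgrg5 (-0.29, adjusted p = 0.637) or Gsr (-0.55, adjusted p = 0.446). Adgrg5 averaged 25.6 TPM in DBA2J and 2.55 TPM in C57BL6J IM, and 127 TPM in DBA2J and 3.62 TPM in C57BL6J iMo. For Id2 the strain difference in pMo was more negative than in the other types (-2.58 ± 0.20 SE, adjusted p = 5.1e-04): the other types averaged 108 TPM in DBA2J and 38.4 TPM in C57BL6J for AM, 92.6 TPM in DBA2J and 63.6 TPM in C57BL6J for IM, and 72 TPM in DBA2J and 56 TPM in C57BL6J for iMo. Of the 4 cell types, pMo alone averaged less Id2 in DBA2J than in C57BL6J.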

How the data were processed

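RNA-seq and ATAC-seq of sorted pMo, AM, IM and iMo from both strains were used, with groups taken from the labels. The authors deposited RNA levels as TPM for 24940 genes and, per cell type and strain, 1 list of peaks from 2 libraries, made by an irreproducible discovery rate procedure per the labels; each peak has 2 numbers, used here as the score and the other score, whose scale the authors' deposited lists do not name. Per the submitters' processing notes STAR, Bowtie and HOMER were used with mm10; versions, peak caller and thresholds are not given in the sources used here. The length given in the table equals the genomic span for 24750 genes (99.2%), and whether it entered the TPM is not stated. Depth is unknown, so no counting error can be given and libraries show only how far replicates scatter, and no column of another series was left unused (0).

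Peak lists were intersected with pandas 2.3.3 and numpy 2.4.6 under Python 3.11.15, and plots made with matplotlib 3.10.9. A peak was assigned to the nearest transcription start of the table within 100 kb. log2(TPM + 1) was fitted with limma 3.58.1 in R 4.3.3, as 1 mean for each of 8 groups over 16 libraries (8 residual degrees of freedom, mean-variance trend), for 12277 genes whose mean reached 1 TPM, with Benjamini-Hochberg adjustment over all of them. Fold changes on this scale understate those of low genes. The fit was tested on simulated data (12277 genes, 200 of them changed), where it recovered 42% of log2 differences of 1 and 89% of differences of 2 in pMo. It made 16 false calls among the genes left unchanged. All changed genes were drawn from those of higher level in C57BL6J pMo, so recovery among low genes was not tested.

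Members and gene lists were chosen with earlier results of these data known. Single genes were named by rule: those at the 8 best-scored strain-only peaks of each strain, the 10 largest called differences in each direction near a strain-only peak (at least 10 TPM in the higher group, no overlap between libraries, no predicted genes), the 5 genes with the most strain-only peaks of a strain, and up to 4 members of each list with the best-scored strain-only peaks. The text gives values for a selection of them, and a few items are left unreported. Genes with a called difference and a strain-only start, the stretches, and Zbtb5, Id2, Klf6, Nfil3, Jun, Fosl2, Bhlhe40, Dusp1, Cxcr4, Cxcl2, Spn, Ace and Cx3cr1 were chosen after their values were seen. Promoter sequences are from RefSeq on GRCm38.p6; the sequence under the peaks was not analysed here. Alternatives covered overlap, number of peaks, score, promoter window, pseudocount, filter, scaling, variance trend, libraries in the fit, replicate number as a block and leaving out each pMo library.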

Additional observations from a re-analysis of the deposited data

Results flagged for a closer look

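For 9 genes of the report the strain difference in pMo (DBA2J minus C57BL6J, log2) departed from its mean in AM, IM and iMo in a limma test of the difference itself (adjusted p under 0.05), among 53 of 12277 genes. It was higher in pMo for 4931408C20Rik by 3.50 ± 0.37 SE (adjusted p = 0.00191), Cd22 by 3.32 ± 0.37 (0.00215), Cd93 by 1.94 ± 0.21 (0.00191), P2rx1 by 1.75 ± 0.31 (0.0433) and P2ry2 by 1.70 ± 0.25 (0.0146). It was lower in pMo for Id2 (-2.58 ± 0.20, 5.1e-04), Gcnt1 (-2.55 ± 0.33, 0.00598), Cxcl2 (-2.16 ± 0.33, 0.0159) and the microRNA entry Mir3109 (-5.28 ± 0.55, 0.00191).

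Cd22 averaged 3.35 TPM in DBA2J and 49.2 TPM in C57BL6J for AM, 184 TPM in DBA2J and 43 TPM in C57BL6J for IM, and 167 TPM in DBA2J and 8.37 TPM in C57BL6J for iMo. AM alone thus averaged less Cd22 in DBA2J. 4931408C20Rik averaged 0.488 TPM in DBA2J and 0 TPM in C57BL6J for AM, and 108 TPM in DBA2J and 0.467 TPM in C57BL6J for iMo. Cd93 averaged 784 TPM in DBA2J and 272 TPM in C57BL6J for IM, and 955 TPM in DBA2J and 250 TPM in C57BL6J for iMo. P2rx1 averaged 0.353 TPM in DBA2J and 0.03 TPM in C57BL6J for AM, and 64.7 TPM in DBA2J and 3.02 TPM in C57BL6J for iMo. P2ry2 averaged 28 TPM in DBA2J and 23 TPM in C57BL6J for AM, and 25 TPM in DBA2J and 1.04 TPM in C57BL6J for iMo. Each gene listed as higher in pMo thus averaged more in DBA2J in iMo as well. A departure of pMo from iMo alone was not tested. Gcnt1 averaged 19.6 TPM in DBA2J and 20.4 TPM in C57BL6J for AM, 45.5 TPM in DBA2J and 51.9 TPM in C57BL6J for IM, and 22.9 TPM in DBA2J and 24.6 TPM in C57BL6J for iMo, so these types lay close together where pMo did not. Cxcl2, a neutrophil-drawing chemokine, had 4.85 and 4.22 TPM in DBA2J pMo, against 14.3 and 20.1 TPM in C57BL6J pMo. Mir3109 was listed at 0 in both DBA2J pMo libraries, against 52.6 and 19.7 TPM in C57BL6J pMo, and averaged 28.5 TPM in DBA2J and 15.9 TPM in C57BL6J AM. In IM and iMo of both strains it averaged 0. The entry spans only chr9:69456944-69457031, and how many reads stand behind the values of so short an entry is unknown.

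Over the alternatives, adjusted p stayed under 0.05 for Cd22 (8.6e-04 to 0.0219), Cd93 (4.2e-04 to 0.0198), Id2 (1.9e-04 to 0.00589) and Mir3109 (6.0e-04 to 0.0198). It did not for P2rx1 under 8 alternatives (0.0547 to 0.479, among them the replicate number as a block and leaving out any 1 pMo library), nor for P2ry2 without either DBA2J library or the second C57BL6J library (0.0556 to 0.113). Cxcl2 was lost under 4 (0.0501 to 0.122, highest without the second C57BL6J library), Gcnt1 without the second C57BL6J library (0.0631), and 4931408C20Rik with a pseudocount of 0.1 (0.147).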

How the results depend on the processing

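Values below change 1 choice at a time, and the cause of a change was not tested beyond what each choice does by construction. The numbers of strain-only peaks over all peaks stayed within 1.5 times of 2068 and 20999 under every overlap rule tried. With equal numbers, the strain-only share of 22.8% became 28.2% in DBA2J and 28.1% in C57BL6J for the 13296 best-scored peaks of each list, 36.9% in DBA2J and 36.8% in C57BL6J for the 6648 best-scored, 21% and 21% by the other score, 24.2% and 24.2% for an overlap of at least 50% of both peaks, and 17.8% and 18.8% where a gap of up to 500 bp counts as shared. Against the full list, the share became 2.27% in DBA2J and 5.69% in C57BL6J for the 13296 best-scored, 1.25% and 2.44% for the 6648, 9.46% and 24.2% for the larger overlap, 5.28% and 18.8% with the gap, and 21% in C57BL6J by the other score. The share within 1 kb of a start became 38% in DBA2J and 8.09% in C57BL6J within 500 bp, 50.1% and 21.5% within 2.5 kb, 55.3% and 14.4% for the 13296 best-scored, and 34.7% and 7.32% with the gap rule, which for position and RNA was added after seeing the data. Peaks in another type of the same strain and none of the other strain became 15.9% (13296 best-scored) and 15.2% (gap) in DBA2J and 28.2% (all strain-only peaks) in C57BL6J. Peaks in no other list became 2.32% in DBA2J (13296 best-scored) and 16.7% in C57BL6J (all strain-only peaks).

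Genes called higher in DBA2J pMo numbered 382 with median-of-ratios scaling, 334 with quantile normalization, 313 without ribosomal entries, and 30 with the pMo libraries alone, which leave 4 samples in the fit and gave 13 lower. Without 1 pMo library at a time, 96 to 154 were higher and 99 to 432 lower. Near DBA2J-only peaks, 49, 41, 46 and 4 genes were higher under those 4 choices, 16 with all strain-only peaks, 8 with the 13296 best-scored and 15 to 22 without 1 library. Lower there were 0 with the pMo libraries alone, 2 with all strain-only peaks, 2 with the 13296 best-scored, and 2 to 19 without 1 library. Near C57BL6J-only peaks, 75, 68, 56 and 3 were higher under the same 4 choices, 8 for centres within 1 kb of a start, 54 with all strain-only peaks, 4 with the 13296 best-scored, and 15 to 21 without 1 library. Lower there were 5 with the pMo libraries alone, 33 within 1 kb, 174 with all strain-only peaks, 44 with the 13296 best-scored, and 47 to 138 without 1 library. For the difference between pMo and the other types, 16 genes were higher and 14 lower with a pseudocount of 0.1, 57 and 67 with no filter, 15 and 18 with a mean of at least 5 TPM, 63 and 47 with median-of-ratios scaling, 56 and 45 without ribosomal entries, 50 higher with quantile normalization, and 10 to 41 higher and 6 to 67 lower without 1 library.

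Of 72 called genes of the lists, rules and starts, 10 were called under every alternative (among them P2rx1, P2ry2, Kcne3, Cd22, Cd93, H2-Ea-ps and 4931408C20Rik), 30 were lost with the pMo libraries alone and under no other choice, 41 held when any 1 library was left out, and 0 changed sign. Replicate numbers were not taken as pairs, since the residuals of same-numbered pMo libraries of the strains correlated at 0.0647, and over 28 pairs of groups at a median of 0.0176 (-0.0749 to 0.2, 5 over 0.1). With the replicate number as a block, 159 genes were higher and 275 lower in pMo. The sequence alternatives were not run, since no genome was used here. Depth limits what absence from a list can show.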
